A study of Homo sapiens with 60 samples.

Results

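Soshiho-tang, a hot-water extract of several herbs used in East Asian medicine, was compared at its high and low doses in HepG2 cells. HepG2 is a line from a human liver cancer that still makes many hepatocyte proteins. The comparison has 4 of the 60 libraries of the series: replicates 2 and 3 of cells given 500 µg/mL and replicates 2 and 3 of cells given 20 µg/mL, each after 24 h. The 4 libraries were chosen by the treatment, dose and replicate in their labels. Replicates 2 and 3 at 100 µg/mL (the medium dose), 3 libraries of cells given the vehicle dimethyl sulfoxide (DMSO), and Yijin-tang, another multi-herb water extract with 3 libraries at 500 and 3 at 20 µg/mL, served for comparison. This is 1 tumour line, and no other liver cells were measured here. For the vehicle the labels state 0.1% DMSO while the series description states 2%. Whether replicates were separate cultures is not said in the labels, so the p-values reflect the spread among these libraries, possibly technical alone.

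The 4 libraries held 24.0 to 27.3 M expected counts (M, mega), and the 2 libraries of a dose were not identical (chi-square per degree of freedom 5.65 at the high and 2.7 at the low dose over genes of at least 50 counts). All 20 hepatocyte markers reached 1 CPM (counts-per-million, on library totals here) in all 4 libraries. Their summed level was lower at the high dose (45300 and 47750 CPM as lowest and highest) than at the low dose (53160 and 54350 CPM), and APOB, which was not called (-0.30 ± 0.13), made 69% of the fall in the mean sum. The mean of 6 of the 20 was higher at the high dose. Of the 20, 2 were called higher and 2 lower, and 1 or 2 each with a library left out (1 and 1 without high-dose replicate 2 or low-dose replicate 2). Of the fibroblast, endothelial and immune markers 8 of 10, 7 of 8 and 7 of 10 stayed under 1 CPM in all 4 libraries, and DCN, KDR and PTPRC were at 0. COL1A1, a fibroblast collagen under 1 CPM in all 4, was called lower (-1.22 ± 0.37), but not by DESeq2 (adjusted p = 0.101) nor with any of the 4 left out (0.133 to 0.344). The summed immune markers ran from 1518 to 1594 CPM at the high and from 1163 to 1194 CPM at the low dose, most of it LYZ, which is described below.

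Among 16924 genes tested with edgeR's quasi-likelihood test, 860 (5.08%) were called at a Benjamini-Hochberg adjusted p under 0.05. At the high dose 476 (2.81%) were higher and 384 (2.27%) lower. These shares are the measure for the counts given for lists of genes, and a count near them says little about its list. Most changes were small: 53 of the higher and 20 of the lower genes reached 2-fold, and 144 and 65 reached 1.5-fold. Of the 860 called genes, all 860 had both libraries of a dose beyond both of the other, but so did 50.8% of all tested genes, so separation of the libraries by itself says little with 2 against 2. An exact permutation test of a single gene cannot go below 0.333 in this design, and the calls rest on the spread shared over 19 groups. Leaving out high-dose replicate 2 or 3 left 490 or 494 calls, and leaving out low-dose replicate 2 or 3 left 501 or 467.

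**Figure D1:**
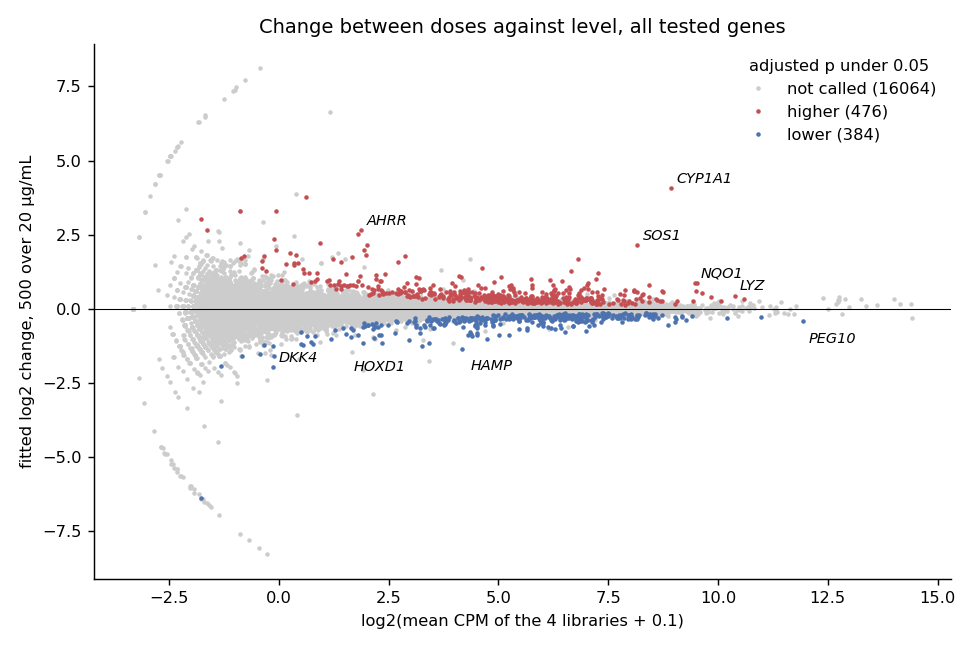
Fitted log2 change between 500 and 20 µg/mL (vertical) against log2 of the mean CPM of the 4 libraries plus 0.1 (horizontal), 1 point per tested gene; red marks the 476 genes called higher and blue the 384 called lower. CYP1A1 and SOS1 stand above genes of similar level, and the widest fitted changes, at the left edge, belong to genes with few counts that were mostly not called.

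Water extracts of plants can hold flavonoids and other small molecules, and the content of this extract was not examined here. The aryl hydrocarbon receptor (AhR) is a ligand-activated transcription factor that, with its partner ARNT, binds DNA sites with the core GCGTG and turns on CYP1 enzymes. It also turns on its own repressor, AHRR. NRF2 is released from its inhibitor KEAP1 by electrophiles and oxidants, binds antioxidant response elements and turns on glutathione synthesis, quinone reduction and export pumps. In liver these systems are known for handling foreign compounds. ATF4, the effector of the integrated stress response, turns on amino acid supply and GDF15.

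RefSeq promoter windows (GRCh38.p14, 250 bases before to 50 after the start) were searched on both strands for short DNA motifs. Whether any factor binds a match was not tested, and no change of level was read from the matches. A window was at hand for 11347 of the tested symbols. Of 12 genes searched, chosen after their values were seen, 4 had a match of their motif upstream of the start and are printed 5′ to 3′ on the gene's strand, 100 bases each, with the matches in capitals. AHRR, from chr5:321614-321713 (+), holds the AhR motif TNGCGTG. GCLM, from chr1:93909431-93909530 (-), and TXNRD1, from chr12:104215630-104215729 (+), hold the antioxidant motif TGACNNNGC, in GCLM on the opposite strand. MT1X, from chr16:56682318-56682417 (+), holds 3 matches of the metal response core TGCNCNC.
AHRR: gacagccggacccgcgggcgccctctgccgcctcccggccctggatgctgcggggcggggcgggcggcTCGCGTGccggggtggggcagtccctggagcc
GCLM: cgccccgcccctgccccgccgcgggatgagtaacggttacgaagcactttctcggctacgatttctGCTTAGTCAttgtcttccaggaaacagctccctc
TXNRD1: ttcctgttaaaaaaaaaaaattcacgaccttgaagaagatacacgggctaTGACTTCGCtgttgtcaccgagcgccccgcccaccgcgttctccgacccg
MT1X: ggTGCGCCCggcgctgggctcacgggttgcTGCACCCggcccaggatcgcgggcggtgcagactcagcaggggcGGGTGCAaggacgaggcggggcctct

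The same motifs had no match upstream in the windows of CYP1A1, CYP1A2, SOS1, RGMB and NEDD9 (AhR motif) or of NQO1, SRXN1 and OSGIN1 (antioxidant motif), which says only that these letters are not in this window. CYP1B1, ALDH3A1, LRRN4, AKR1B10, HMOX1 and MT1F were not searched. Over whole windows the AhR motif was in 7.38% of all tested genes, 6.21% of the genes called higher and 4.76% of those called lower. For the antioxidant motif these shares were 15.2%, 16.7% and 13.6%, and for the metal core 63.1%, 65.3% and 66.0%. Of the 27 genes with a window that were at least 2-fold higher, 3.7% held the AhR motif, 3.7% the antioxidant motif and 63% the metal core. These shares are descriptions and were not tested.

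CYP1A1, a monooxygenase that oxidises polycyclic aromatic compounds (chr15:74719542-74725610 on GRCh38), had the highest log2 change of the named genes. Its levels were 59.7 and 51.0 CPM at the low, 279 and 276 CPM at the medium and 920 and 927 CPM at the high dose, against 7.51 to 8.26 CPM in vehicle. No library of a dose overlapped the next dose. The high over low change was 4.06 ± 0.07 on the log2 scale (SE; adjusted p = 1.9e-36), and the low dose was already 2.80 above vehicle (adjusted p = 3.1e-29). AHRR, the repressor that competes with AhR for ARNT, behaved otherwise: it stood at 0.876 and 1.09 CPM at the low, 1.255 and 1.57 CPM at the medium and 6.41 and 5.92 CPM at the high dose. Vehicle libraries held 0.953 to 1.36 CPM of AHRR, overlapping the low dose, and the high over low change was 2.65 ± 0.28 (adjusted p = 1.5e-09). AHRR overlaps PDCD6 on the same strand, and PDCD6 did not pass (0.08 ± 0.07).

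Of 7 tested AhR targets 6 were called higher and 0 lower, with a median log2 change of 2.64 against -0.002 over all tested genes. DESeq2 called 4 of them and gave no adjusted p for CYP1A2 and CYP1B1. CYP1A2 rose from 0.11 and 0.203 to 1.55 and 1.57 CPM and CYP1B1 from 0.0365 and 0.121 to 0.838 and 0.765 CPM. These are few counts, and CYP1B1 missed the threshold once low-dose replicate 2 was left out (adjusted p = 0.117). ALDH3A1, an aldehyde dehydrogenase, rose from 1.13 and 1.70 to 4.94 and 4.51 CPM (1.74 ± 0.26, adjusted p = 5.6e-06). NQO1, a quinone reductase listed under both AhR and NRF2, rose from 510 and 497 to 910 and 935 CPM (0.87 ± 0.06, adjusted p = 4.5e-15). TIPARP, a feedback ADP-ribosyltransferase, held 19.5 and 18.8 CPM at the low and 17.2 and 18.4 CPM at the high dose (-0.11 ± 0.09, adjusted p = 0.70). Of 9 tested genes of the receptor complex 0 were called by edgeR's main fit over all 19 groups or by DESeq2 (1 at an unadjusted p under 0.05). When fitted to the 4 libraries alone or with the replicate block, edgeR called 1 of them higher. AHR itself held 41.0 and 40.9 CPM at the low and 42.1 and 42.0 CPM at the high dose.

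**Figure D2:**
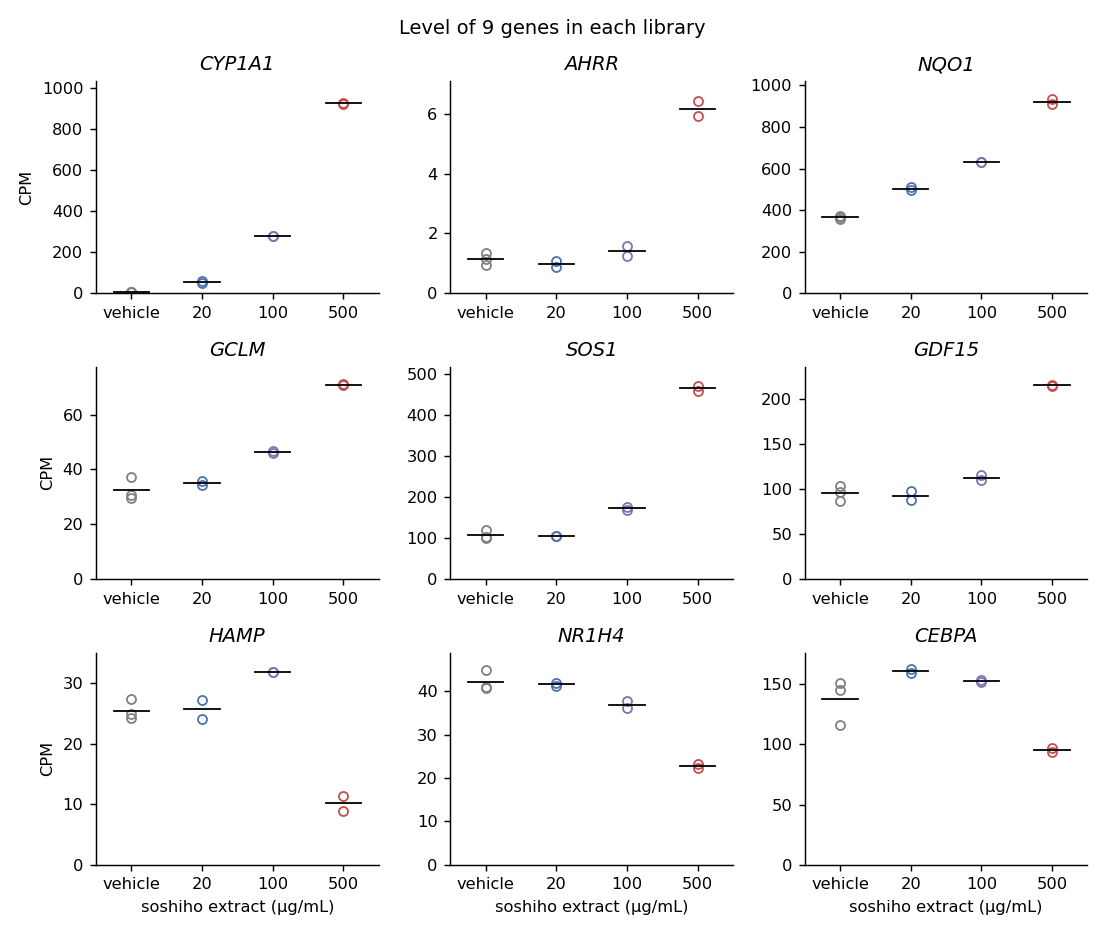
CPM (vertical, from 0) of 9 genes in each library of vehicle and of soshiho at 20, 100 and 500 µg/mL (horizontal); circles are libraries and bars are group means. CYP1A1 and NQO1 step up at every dose, AHRR, SOS1 and GDF15 stand apart mainly at 500 µg/mL, and HAMP, NR1H4 and CEBPA are lowest at 500 µg/mL.

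In the 3 lists of the NRF2 programme every gene called was higher at the high dose, except that 1 glutathione gene was called lower with DESeq2, library size alone, no filter, the replicate block or the 4 libraries alone. In the glutathione and thioredoxin arm 7 of 14 tested members were higher and 0 lower (median log2 0.34), against 2.81% of all genes higher. GCLM, the modifier subunit of the enzyme that starts glutathione synthesis, rose from 34.3 and 35.9 through 46.0 and 46.6 to 71.0 and 71.0 CPM (1.02 ± 0.09, adjusted p = 5.9e-11). Its catalytic partner GCLC rose by less (0.66 ± 0.07), as did SLC7A11, the cystine importer (0.79 ± 0.10). SRXN1, which restores oxidised peroxiredoxins, held 96.0 and 92.5 CPM at the low and 164 and 163 CPM at the high dose (0.80 ± 0.05). TXNRD1, thioredoxin reductase, rose from 189 and 179 to 294 and 279 CPM (0.64 ± 0.07).

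In the detoxification arm 10 of 20 tested members were higher and 0 lower (median log2 0.37). AKR1B10, an aldo-keto reductase, rose from 58.1 and 58.4 through 84.0 and 82.8 to 142 and 142 CPM (1.28 ± 0.07, adjusted p = 7.7e-19). OSGIN1, an oxidative stress gene, rose from 59.5 and 59.5 to 114 and 115 CPM (0.94 ± 0.09), and HMOX1, haem oxygenase 1, from 61.8 and 57.9 to 93.1 and 93.7 CPM (0.64 ± 0.07). The export pumps ABCC2 (0.57 ± 0.06) and ABCC3 (0.60 ± 0.07) rose, as did the autophagy receptor SQSTM1 (0.63 ± 0.05). ABCG2, an export pump from another list, rose by 0.54 ± 0.09. AKR1C1 and AKR1C2 rose by 0.62 ± 0.06 and 0.80 ± 0.08, but they are near-identical copies whose reads RSEM may share out differently. Of 6 NADPH genes, TKT and TALDO1 of the pentose phosphate shunt passed, each at 0.28, TALDO1 not without low-dose replicate 3 (adjusted p = 0.0968).

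**Figure D3:**
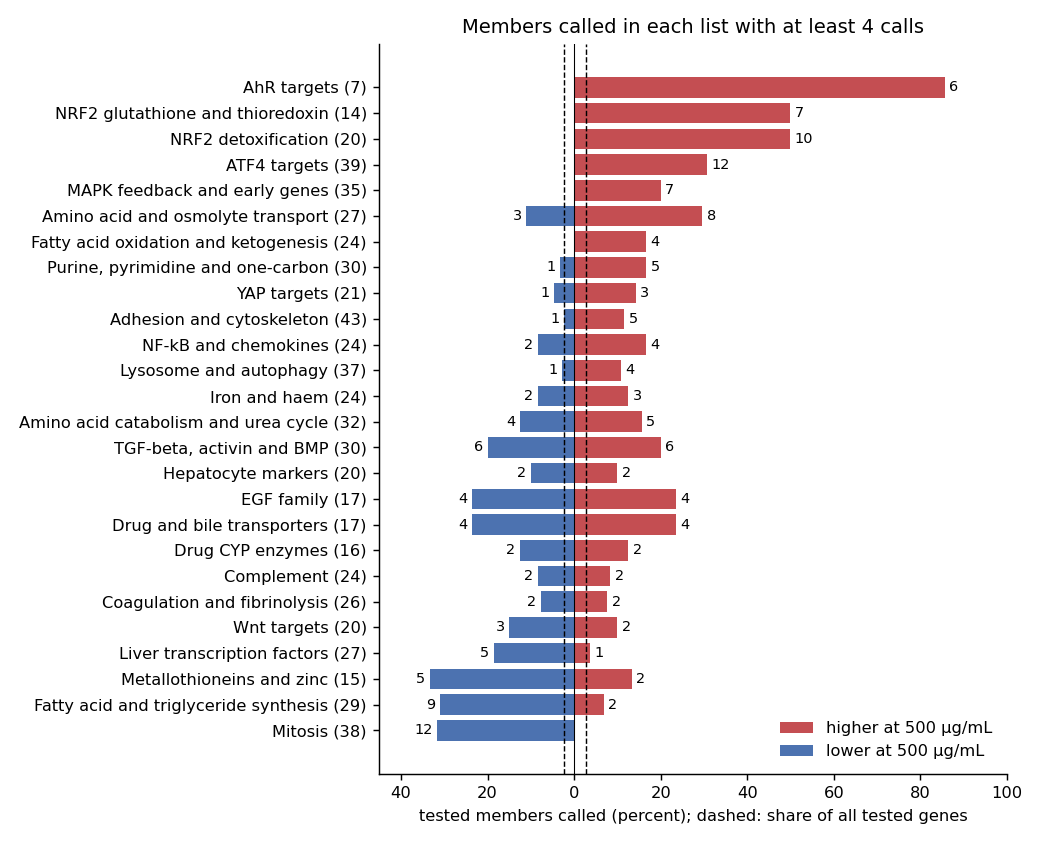
Percent of tested members called higher (right, red) or lower (left, blue) at 500 µg/mL in each list with at least 4 calls; the tested number is in brackets, the count at each bar, and dashed lines mark 2.81% and 2.27% of all tested genes. AhR and NRF2 lists lie at the top with higher members alone, and mitosis lies at the bottom with 12 lower and 0 higher.

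SOS1, the exchange factor that loads RAS with GTP (chr2:38981396-39124345), was higher at the high dose. It held 105 and 106 CPM at the low, 176 and 170 CPM at the medium and 470 and 460 CPM at the high dose, while vehicle libraries spanned 100 to 121 CPM. The low dose lay inside the vehicle range and every higher dose above it. The high over low change was 2.14 ± 0.08 (adjusted p = 8.8e-25). SOS1-IT1, a transcript inside an intron of SOS1 on the same strand, moved with it from 1.68 and 1.70 to 5.91 and 6.08 CPM (1.82 ± 0.24). Lying within SOS1, it is not a separate result. Of the 21 tested RAS and MAPK parts, SOS1 was the 1 called. An unadjusted p under 0.05 was reached by 4 of them, of which 2 were higher, and 10 had a fitted change above 0. Fitted to the 4 libraries alone or with the replicate block, edgeR also called 1 member lower. Its paralogue SOS2 held 22.3 and 21.8 CPM at the low and 19.4 and 20.1 CPM at the high dose (-0.16 ± 0.09, adjusted p = 0.46), and GRB2, the adaptor that brings SOS1 to receptors, changed by -0.05 ± 0.04.

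Of 35 tested feedback and early genes of the MAPK pathway 7 were higher and 0 lower. DUSP6, the phosphatase that switches off ERK, rose from 41.2 and 37.5 to 71.2 and 67.1 CPM (0.81 ± 0.08, adjusted p = 2.6e-10), and KLF6, an early transcription factor, by 0.40 ± 0.06. The count was 3 or 5 with high-dose replicate 2 or 3 left out and 4 or 3 with low-dose replicate 2 or 3 left out. EGR1, a standard early gene, held 12.5 and 12.3 CPM at the low and 12.1 and 12.2 CPM at the high dose.

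Of 17 tested genes of a list that holds EGF family ligands and receptors together with FGF receptors and their co-receptor, 4 were higher and 4 lower. The 4 higher genes were EGF family ligands, and of the 4 lower genes ERBB2 is an EGF family receptor and the others are FGF receptors or a co-receptor. With high-dose replicate 2 or 3 left out 2 or 3 were higher and 3 or 3 lower, and with low-dose replicate 2 or 3 left out 2 or 3 were higher and 2 or 4 lower. AREG, amphiregulin, rose from 5.47 and 5.14 to 9.13 and 10.3 CPM (0.87 ± 0.14, adjusted p = 2.8e-05). EREG (1.54 ± 0.39) and HBEGF (0.96 ± 0.24), both below 4 CPM and chosen after their values were seen, missed the threshold when high-dose replicate 2 (adjusted p = 0.0949 and 0.144) or low-dose replicate 2 (0.174 and 0.193) was left out. TGFA rose by 0.33 ± 0.08, with an adjusted p of 0.212 without high-dose replicate 3 and 0.0778 without low-dose replicate 3. The receptors FGFR3 (-0.44 ± 0.06) and FGFR1 (-0.29 ± 0.05) fell and stayed called without each library. ERBB2 fell by 0.25 on the log2 scale, with an adjusted p of 0.0677 without high-dose replicate 2 and 0.0897 without low-dose replicate 2.

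Other genes with large rises came from several lists or none. LRRC25, a leucine-rich repeat membrane protein, rose from 1.02 and 0.972 to 5.61 and 5.84 CPM (2.52 ± 0.27), and LRRN4, a neuronal member of that repeat family, from 1.5 and 1.38 to 6.49 and 6.36 CPM (2.16 ± 0.20). RGMB, a co-receptor for bone morphogenetic proteins, rose from 13.8 and 13.8 to 35.4 and 35.7 CPM (1.37 ± 0.09). It is overlapped on the opposite strand by RGMB-AS1, which rose too (0.94 ± 0.28), and the strand setting of the counting is not given in the sources used here. AQP3, a water and glycerol channel, rose from 3.503 and 3.08 to 11.1 and 11.4 CPM (1.77 ± 0.14). IGFBP1, an insulin-regulated binding protein, held 57.0 and 50.2 CPM at the low, 48.3 and 44.0 CPM at the medium and 177 and 164 CPM at the high dose (1.67 ± 0.32, adjusted p = 0.00032). NEDD9, a scaffold of focal adhesions, rose from 101 and 97.1 to 199 and 200 CPM (1.01 ± 0.06). SPP1, osteopontin, rose from 530 and 515 to 927 and 981 CPM (0.87 ± 0.09) and SLC2A1, a glucose transporter, from 666 and 632 to 954 and 948 CPM (0.55 ± 0.05). LYZ, lysozyme, a myeloid marker that these cells hold without PTPRC, rose by 0.44 ± 0.07 (adjusted p = 1.2e-05).

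Of 39 tested ATF4 targets 12 were higher and 0 lower, and the median log2 change was 0.15. GDF15, a stress cytokine that lowers appetite, rose furthest, from 97.1 and 87.6 to 215 and 214 CPM (1.22 ± 0.10, adjusted p = 5.4e-12). STC2, a secreted glycoprotein, rose by 0.39 ± 0.06 and the cystine importer SLC7A11, which is also an NRF2 target, by 0.79 ± 0.10. SLC7A5, a large neutral amino acid importer, rose by 0.27 ± 0.06, though it missed the threshold with library size alone (adjusted p = 0.0545) or without low-dose replicate 3 (0.0572). With high-dose replicate 2 or 3 left out the count was 5 or 11, and with low-dose replicate 2 or 3 left out 8 or 6. Of 28 endoplasmic reticulum chaperones and unfolded protein response genes 0 were called by edgeR or DESeq2, and 3 had an unadjusted p under 0.05. Fitted to the 4 libraries alone, edgeR called 2 of them lower.

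Transporters of amino acids and osmolytes split, with 8 of 27 tested higher and 3 lower. SLC43A2, another neutral amino acid carrier, rose from 29.6 and 28.7 to 47.9 and 45.9 CPM (0.69 ± 0.10). SLC6A12, the betaine transporter, fell from 5.25 and 6.4 to 3.27 and 2.62 CPM (-0.98 ± 0.14), and SLC1A2, a glutamate importer, from 28.2 and 26.8 to 15.0 and 14.4 CPM (-0.91 ± 0.13). SLC38A3, a glutamine carrier chosen after its value was seen, fell by 0.29 on the log2 scale. The count of higher members was 4 with library size alone, 4 or 6 with high-dose replicate 2 or 3 left out and 6 or 3 with low-dose replicate 2 or 3 left out.

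The TGF-β, activin and BMP list changed in both directions, with 6 of 30 tested members higher and 6 lower. The lower genes are known to be induced by BMP or TGF-β signals, and whether those signals changed was not tested. HAMP, the iron hormone hepcidin, held 27.3 and 24.1 CPM at the low, 32.0 and 31.9 CPM at the medium and 8.97 and 11.3 CPM at the high dose (-1.34 ± 0.22, adjusted p = 3.1e-05). ID1, an inhibitor of helix-loop-helix factors, fell from 163 and 156 to 110 and 103 CPM (-0.58 ± 0.10), and ID2 by 0.58. The inhibitory SMAD7 (-0.55 ± 0.08) and SMAD6 (-0.41 ± 0.08) and the repressor SKIL (-0.59 ± 0.10) fell too. ID1, ID2, SMAD6 and SKIL were chosen after their values were seen. The higher genes included the ligand BMP4, from 119 and 117 to 149 and 156 CPM (0.37 ± 0.06), the receptor ACVR1 (0.41 ± 0.09) and the co-receptor TGFBR3 (0.61 ± 0.08). FST, an activin trap, missed the threshold without high-dose replicate 2 (adjusted p = 0.0554); it and ACVR1 were also chosen after their values were seen. GDF15, described above, was also among the higher members.

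Of 27 tested liver transcription factors 5 were lower and 1 higher, the latter 0 without low-dose replicate 3. NR1H4, the bile acid receptor FXR (chr12:100473708-100564413), held 42.0 and 41.3 CPM at the low, 36.1 and 37.8 CPM at the medium and 23.2 and 22.3 CPM at the high dose (-0.87 ± 0.08, adjusted p = 1.0e-10). CEBPA, a factor of hepatocyte differentiation, held 159 and 163 CPM at the low, 152 and 154 CPM at the medium and 93.7 and 97.3 CPM at the high dose (-0.75 ± 0.08, adjusted p = 1.9e-09). FOXA1 (-0.41 ± 0.05) and FOXA3 (-0.39 ± 0.08) fell, and HNF4A, a central hepatocyte factor, held 438 and 432 CPM at the low and 474 and 483 CPM at the high dose (0.14 ± 0.06, adjusted p = 0.29). Of 12 bile acid genes NR1H4 was the 1 called, and its target NR0B2 did not pass (-0.10 ± 0.12). SLC51B, a bile acid exporter and another FXR target, fell by 0.95 on the log2 scale at under 5 CPM, a call missed without high-dose replicate 2 (adjusted p = 0.117). It was chosen after its value was seen.

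Among secreted liver proteins 2 of 26 coagulation genes, 2 of 24 complement genes and 1 of 23 acute phase genes were higher, and 2, 2 and 2 lower. Over all tested genes 2.81% were higher and 2.27% lower, so counts this small say little about these lists. With high-dose replicate 2 left out 1, 1 and 1 were higher and 2, 0 and 1 lower, and with high-dose replicate 3 left out 1, 2 and 1 higher and 2, 1 and 0 lower. With low-dose replicate 2 left out 1, 2 and 1 were higher and 2, 1 and 0 lower, and with low-dose replicate 3 left out 2, 1 and 1 higher and 2, 1 and 2 lower. Library size alone gave 6, 4 and 3 lower, and the replicate block 5, 4 and 3. The counts were largest when edgeR was fitted to the 4 libraries alone, a fit that called 1707 genes in all. There 4, 2 and 2 were higher and 7, 5 and 7 lower. KNG1, kininogen, fell from 5.44 and 4.74 to 1.89 and 2.66 CPM (-1.16 ± 0.16) and FGA, a fibrinogen chain, from 1297 and 1299 to 1048 and 1050 CPM (-0.31 ± 0.05). MBL2, mannose-binding lectin, rose from 19 and 18.1 to 30.2 and 29.8 CPM (0.69 ± 0.09) and AMBP by 0.40 ± 0.07. ALB did not pass (-0.17 ± 0.07, adjusted p = 0.23). ADH4, an alcohol dehydrogenase, fell from 24.3 and 27.5 to 15.2 and 14.8 CPM (-0.79 ± 0.09). The acyl-CoA synthetases ACSM2A and ACSM2B both fell by 1.14 on the log2 scale, but as near-identical copies they are not separate results. Outside the AhR targets, 2 of 16 drug-metabolising CYP genes rose, CYP2J2 (0.93 ± 0.18) and CYP4F11 (0.35 ± 0.07), and 2 fell, CYP3A7 (-0.70 ± 0.18) and CYP4F12 (-0.33 ± 0.10). Neither of the lower pair was called without high-dose replicate 2 (adjusted p = 0.0849 and 0.193), high-dose replicate 3 (0.0822 and 0.229) or low-dose replicate 3 (0.0934 and 0.568).

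Fatty acid and triglyceride synthesis was lower in 9 of 29 tested genes and higher in 2 (median log2 -0.13). GPAM, the mitochondrial enzyme of the first step of glycerolipid synthesis, fell from 171 and 170 to 118 and 119 CPM (-0.53 ± 0.07, adjusted p = 1.4e-07). ACSL4 fell from 545 and 558 to 395 and 368 CPM (-0.53 ± 0.06), DGAT2, of the last step to triglyceride, by 0.47 and the lipogenic factor SREBF1 by 0.43. The 2 higher members were AGPAT2 (0.78 ± 0.17), of the next step, and PLIN2 (0.29 ± 0.07), a lipid droplet coat protein. AGPAT2 was not called without high-dose replicate 2 (adjusted p = 0.062) or low-dose replicate 3 (0.107), nor PLIN2 without high-dose replicate 3 (0.101) or low-dose replicate 3 (0.0922). GPAT3, outside the list, an enzyme of the step that GPAM also serves, rose from 5.55 and 6.36 to 13 and 11.5 CPM (1.04 ± 0.14). Leaving out high-dose replicate 2 or 3 gave 8 or 6 lower members, and leaving out low-dose replicate 2 or 3 gave 7 or 6. CPT1A, which admits fatty acids to mitochondria, rose from 51.7 and 51.0 to 70.6 and 81.9 CPM (0.57 ± 0.10), and 4 of 24 oxidation genes rose and 0 fell. Of 25 cholesterol synthesis genes 3 were lower, among them HMGCS1 (-0.26 ± 0.07). With high-dose replicate 2 or 3 left out 1 or 0 of these genes were lower, and with low-dose replicate 2 or 3 left out 0 or 2.

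Mitotic genes were lower by small amounts, in 12 of 38 tested members against 2.27% of all genes, with 0 higher and a median log2 change of -0.20. KIF20A, a kinesin of cytokinesis, held 84.0 and 82.5 CPM at the low, 85.1 and 85.3 CPM at the medium and 64.4 and 63.6 CPM at the high dose (-0.38 ± 0.06, adjusted p = 1.9e-05). TPX2, a spindle factor, fell by 0.33 and AURKA, a mitotic kinase, and BIRC5, survivin, by 0.26 and 0.27. Leaving out high-dose replicate 2 or 3 gave 5 or 10 lower genes, and leaving out low-dose replicate 2 or 3 gave 8 or 5. DNA replication genes were lower in 2 of 43, but in 0 with no filter or without high-dose replicate 2, high-dose replicate 3 or low-dose replicate 3, and in 1 without low-dose replicate 2. CDKN1A, the inhibitor of cyclin-dependent kinases, rose from 74.8 and 71.2 to 106 and 105 CPM (0.53 ± 0.08), while vehicle libraries held 91.0 to 98.0 CPM and the low dose lay below them (-0.36, adjusted p = 0.00047). Of 31 p53 targets 2 rose, and 1 with library size alone, with no filter or without high-dose replicate 3, low-dose replicate 2 or low-dose replicate 3.

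Metal handling showed 5 of 15 tested genes lower and 2 higher. MT1X, a metallothionein that binds zinc and copper, held 29.7 and 28.6 CPM at the low and 17.0 and 16.1 CPM at the high dose (-0.82 ± 0.20, adjusted p = 0.0061), and MT1F fell from 28.5 and 24.5 to 15.2 and 14.3 CPM (-0.85 ± 0.21). The libraries of the doses did not overlap, yet these calls are among the least stable: the count of lower members was 1 or 0 with high-dose replicate 2 or 3 left out, and 0 or 3 with low-dose replicate 2 or 3 left out. MT2A (-0.39 ± 0.24) and MT1E (-0.67 ± 0.25) did not pass. Metallothionein genes are near-identical copies, so their counts are not fully separate. The zinc importers SLC39A10 (0.65 ± 0.10) and SLC39A4 (0.36 ± 0.07) rose and stayed called without each library. In haem synthesis ALAS1, the first enzyme, rose by 0.33 ± 0.07 and FECH, the last, by 0.42 ± 0.07.

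DKK4, a secreted Wnt inhibitor induced by β-catenin, fell from 1.31 and 1.296 to 0.419 and 0.242 CPM (-1.97 ± 0.32, adjusted p = 2.3e-05), and DKK1, a related inhibitor, from 89.6 and 89.8 to 56.8 and 59.1 CPM (-0.63 ± 0.10). Of 20 Wnt targets 3 were lower and 2 higher, TBX3 being one of the higher (0.36 ± 0.05). The higher count was 1 without high-dose replicate 2, without low-dose replicate 3 or with no filter. HOXD1, a homeobox factor, fell from 13.3 and 13.2 to 5.07 and 6.16 CPM (-1.24 ± 0.13), and HAGLR, which overlaps it on the opposite strand, from 84.4 and 82.0 to 63.0 and 69.3 CPM (-0.33 ± 0.05). KCNJ10, a potassium channel, fell from 35.9 and 35.0 to 18.1 and 17.1 CPM (-1.01 ± 0.10). PEG10, a retrotransposon-derived gene that is abundant in liver cancer, showed the greatest loss in CPM among called genes, from 4530 and 4474 to 3362 and 3344 CPM (-0.43 ± 0.07).

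Of 13 genes under glucocorticoid control 2 were lower and 1, TAT, a tyrosine-degrading enzyme, was higher (0.55 ± 0.14). TAT missed the threshold without high-dose replicate 2 (adjusted p = 0.118), low-dose replicate 2 (0.101) or low-dose replicate 3 (0.0884). SGK1, a kinase that raises sodium uptake, fell from 63.2 and 60.4 to 37.2 and 39.0 CPM (-0.70 ± 0.08, adjusted p = 1.4e-08) and KLF9 from 23.3 and 20.8 to 14.5 and 14.6 CPM (-0.60 ± 0.09). HSD11B2, which inactivates cortisol, fell from 30.9 and 28.5 to 15.5 and 16.6 CPM (-0.89 ± 0.09), and SCNN1A, a subunit of the epithelial sodium channel, by 0.86. In the clock list 3 of 18 were lower, and all 3 were the related output factors DBP (-0.68 ± 0.16), TEF (-0.50 ± 0.11) and HLF (-0.29 ± 0.04). DBP missed the threshold without high-dose replicate 2 (adjusted p = 0.115) or low-dose replicate 2 (0.179), and TEF without low-dose replicate 3 (0.0828).

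In the large housekeeping lists edgeR, fitted over all 19 groups, called 0 of 39 nuclear oxidative phosphorylation genes, 0 of 43 ribosomal protein genes and 0 of 13 mitochondrially encoded genes, and DESeq2 called 0 of each. An unadjusted p under 0.05 was reached by 1, 0 and 1 of them. Fitted to the 4 libraries alone, edgeR called 0, 8 and 10 of them, all higher, and with no filter 0, 1 and 6. Of the ribosomal proteins 42 and of the mitochondrial genes 13 had a fitted change above 0, with medians of 0.09 and 0.21. The mitochondrial share of counts was 12.26 and 13.69% at the high, 11.15 and 11.41% at the low and 12.18 and 12.67% at the medium dose. Its part in other results was not tested.

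The medium dose lay between the others for most called genes. Of 849 called genes with at least 1 CPM, 728 had a medium mean between low and high, 2 beyond high and 119 on the far side of low. At 100 µg/mL a median of 26.6% of the log2 difference was present, 30.2% for genes called higher and 20.1% for genes called lower. The medium libraries took no part in the calls beyond the shared spread, but the share is computed from the same low and high libraries that chose the genes, so it is given with no test. HAMP, KIF20A and IGFBP1, described above, were among the genes whose medium level had not moved toward the high dose.

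**Figure D4:**
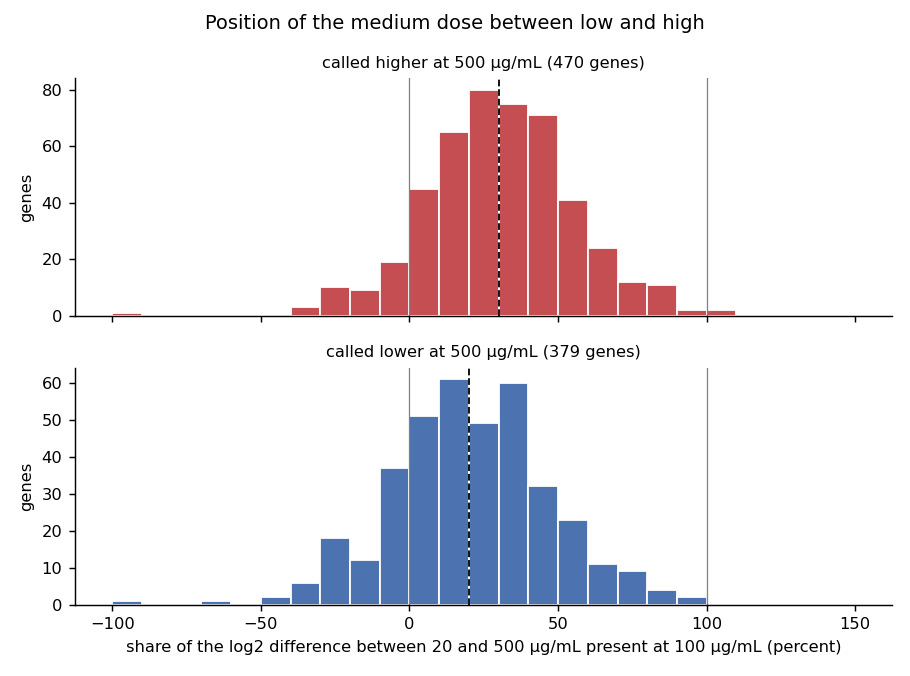
Number of called genes of at least 1 CPM (vertical) by the share of the log2 difference between 20 and 500 µg/mL that was present at 100 µg/mL (horizontal, percent; values beyond the axis are drawn at its ends); grey lines mark 0 and 100, dashed lines the medians of 30.2% (higher) and 20.1% (lower). Most genes lie between 0 and 100.

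Against vehicle 2019 genes were called at the low dose (11.9% of those tested), of which 927 stood higher and 1092 lower. A 2-fold difference was reached by 63 and 42 of them. With library size alone the count was 3575, of which 91.2% were higher against 45.9% here, and the median log2 difference of all genes shifted by 0.12. Leaving out low-dose replicate 2 or 3 gave 895 or 612. The code on the vehicle samples is not shared with the extract samples, so treatment and code cannot be told apart, and this comparison shares the low-dose libraries with the one above. The mitochondrial share of the vehicle libraries was 15.19 to 18.4%, above every soshiho library. Beside CYP1A1, the low dose was above vehicle in AKR1B10 (0.50), NQO1 (0.46), RGMB (0.55) and TXNRD1 (0.25), the last not without low-dose replicate 2 (adjusted p = 0.109). AHRR (-0.24, adjusted p = 0.66), SOS1 (-0.03, 0.84), GDF15 (-0.05, 0.82), HAMP (0.01, 0.97) and NR1H4 (-0.02, 0.89) did not pass by edgeR's quasi-likelihood test.

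Where the soshiho dose response differed from that of yijin was tested as a difference of differences, with the same doses and code set and no shared library. The test called 149 genes (0.88%), 110 with a higher and 39 with a lower soshiho response. AHRR differed most among named genes, by 2.79 ± 0.38 (adjusted p = 1.3e-05): its log2 change was 2.65 with soshiho and -0.15 with yijin. CYP1A1 rose with both extracts, by 4.06 and 3.27 (difference 0.79 ± 0.10). SOS1 rose by 2.14 and 0.30 (difference 1.84 ± 0.10, adjusted p = 7.6e-18), LRRN4 by 2.16 and 0.67 and RGMB by 1.37 and 0.36. The yijin values are fitted changes and say nothing of calls within yijin. Leaving out replicate 2 or 3 of soshiho at the high dose gave 75 or 87 calls, and leaving out replicate 2 or 3 at the low dose gave 76 or 66.

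The NRF2 genes did not all differ between extracts. HMOX1 changed by 0.64 with soshiho and -0.08 with yijin (difference 0.72 ± 0.09, adjusted p = 2.0e-06), and OSGIN1 (difference 0.62 ± 0.11) and SRXN1 (0.39 ± 0.07) were also called. AKR1B10 changed by 1.28 and 1.36, a difference of -0.07 ± 0.09 that did not pass, and neither did those of GCLM (0.33 ± 0.12) or NQO1 (0.27 ± 0.08). In cholesterol synthesis 9 of 25 tested genes had a called difference, all 9 with the yijin change further down. TM7SF2, a sterol reductase, changed by -0.05 and -0.55 (difference 0.50 ± 0.08), and LSS, lanosterol synthase, by -0.14 and -0.58 (0.44 ± 0.09). ATF4 targets had 6 of 39 such differences, all 6 toward soshiho, and p53 targets 4 of 31. Leaving out replicate 2 or 3 of soshiho at the high dose gave 4 or 7 differences in cholesterol synthesis, 3 or 4 in ATF4 targets and 2 or 1 in p53 targets. With replicate 2 or 3 at the low dose left out there were 6 or 5, 3 or 2, and 1 or 2. Leaving out a yijin library gave 6 to 8, 4 to 6 and 3 to 4, the lowest count of cholesterol synthesis being without high-dose replicate 3. CDKN1A, a p53 target called with each library left out, changed by 0.53 and 0.01 (difference 0.52 ± 0.10). MT1F changed by -0.85 with soshiho and -2.34 with yijin (difference 1.49 ± 0.29), the lower level being with yijin. DKK4, with few counts in the soshiho libraries, changed by -1.97 with soshiho and 0.21 with yijin. HOXD1 (-1.24 and -0.32) and KCNJ10 (-1.01 and -0.09) fell more with soshiho. TM7SF2 and LSS were chosen after their values were seen.

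**Figure D5:**
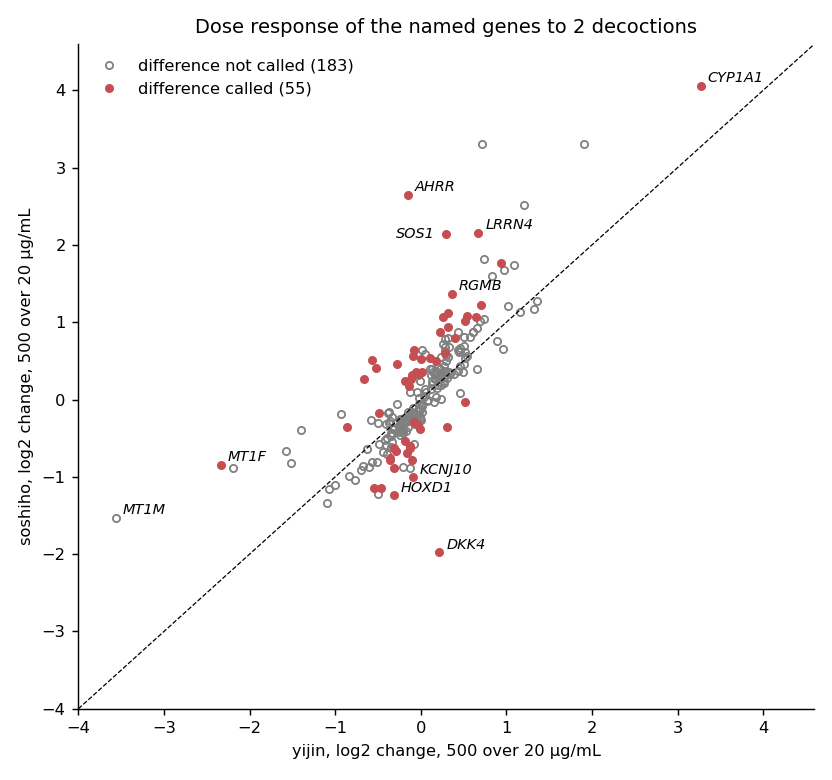
Fitted log2 change between 500 and 20 µg/mL with soshiho (vertical) against yijin (horizontal) for the 238 named genes, most of which were chosen by their soshiho change; red marks the 55 whose difference was called, and the dashed line marks equal change. AHRR, SOS1, LRRN4 and RGMB lie far above the line, DKK4 far below it, and MT1F and MT1M further left than down.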

How the data were processed

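RNA from HepG2 cells was made into directional libraries and read as 100 bp pairs, per the labels' protocols. The authors deposited expected counts for 60675 gene identifiers. Per the submitters' processing notes, FastQC 0.11.9, Trim Galore 0.6.5, STAR 2.7.3a on hg38 and RSEM 1.3.3 were used. RSEM shares out reads that fit several genes. Fractional values made up 10.4%, and every value was rounded to a whole number before testing. Library totals ran from 20.7 to 38.0 M (mega). Symbols came from a name table (56558 identifiers) and positions from GENCODE 29 (57055).

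All 19 groups with 2 or 3 libraries (54 libraries) were fitted in R 4.3.3 with edgeR 4.0.16: filterByExpr by group, trimmed mean of M values (TMM) scaling, 1 mean per group, quasi-likelihood tests and Benjamini-Hochberg adjustment over all tested genes, called under 0.05. CPM use normalized library sizes, except those of cell type markers, which use library totals. Log2 changes carry SEs from the fit. The older quasi-dispersion (legacy) setting of edgeR was kept after 4 settings had been seen, because it gave the same count of calls as an earlier analysis of these data. DESeq2 1.42.0, other scalings, filters, blocks and left-out libraries are alternatives. The fit was also run on simulated counts, drawn independently around a shared mean per gene with changes added at the high dose. That run holds no batch and cannot show how separate cultures vary.

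Named genes are the 20 largest and 20 smallest changes, the 10 smallest p-values in each direction and the 10 greatest gains and losses in CPM, among called genes with separate libraries, a mean of 5 CPM or more at one of the doses and no clone name. Added to these are up to 5 called members of each of 59 lists by p, all tested members of the AhR target, RAS and MAPK part, and metallothionein lists, and the 8 largest and 8 smallest called differences from yijin of at least 5 CPM. The members and lists were chosen with earlier results of these data known. Genes said to be chosen after their values were seen lie outside the rule, as do members named to say that they did not pass and genes that overlap a named one. Wortmannin, named in the series text, is not analysed here. Some items are not reported here.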

Additional observations from a re-analysis of the deposited data

Results flagged for a closer look

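The 55 named genes whose dose response differed between soshiho and yijin by the interaction test are given here with the difference in log2 change, soshiho minus yijin; CYP1A1 (0.79), AHRR (2.79) and SOS1 (1.84) are described above. Larger values with soshiho were found for the membrane and signalling genes LRRN4 (1.49), PTGDR2 (1.08), RGMB (1.01), AQP3 (0.84), FGD4 (0.80), FAM171A1 (0.64), SLC16A6 (0.54), NEDD9 (0.49), CAVIN2 (0.42), SLC7A5 (0.38), ABCC3 (0.32) and TNFRSF21 (0.32). Stress and transcription genes in this direction were JDP2 (0.94), NUPR1 (0.92), BMF (0.73), HMOX1 (0.72), OSGIN1 (0.62), CDKN1A (0.52), GDF15 (0.51), TP53I3 (0.42), SRXN1 (0.39) and TBX3 (0.34). Metabolic and other genes were MT1F (1.49), OTUB2 (0.81), TUBB2B (0.65), HPX (0.50), PC (0.43), ALDH1L1 (0.42), CYP4F11 (0.40), ALAS1 (0.35), ACAT2 (0.32) and GLUL (0.31).

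Smaller or more negative values with soshiho were found for the regulators DKK4 (-2.19), HOXD1 (-0.92), EGR1 (-0.55), SGK1 (-0.53), DKK1 (-0.50), KLF9 (-0.47), TP53INP2 (-0.42), CEBPA (-0.39) and HLF (-0.21). Enzymes, channels and receptors in this direction were KCNJ10 (-0.91), ADH4 (-0.68), ACSM2A (-0.68), CYP24A1 (-0.66), ACSM2B (-0.59), HSD11B2 (-0.58), PAQR8 (-0.38) and ACSL4 (-0.35). The mitotic genes KIF20A (-0.38) and TPX2 (-0.30) and RHOBTB1 (-0.32) complete the set. Of the 55 differences 26 were called with each single library left out and 29 were not. Those 29 were the differences of ACSM2A, HSD11B2, EGR1, DKK1, KLF9, CEBPA, ACSL4, RHOBTB1, TPX2, HLF, TNFRSF21, ACAT2, ABCC3, TBX3, ALAS1, SLC7A5, CYP4F11, CAVIN2, TP53I3, ALDH1L1, PC, HPX, GDF15, SLC16A6, TUBB2B, OTUB2, AQP3, NUPR1 and JDP2. They were lost for GDF15 with any of 8 libraries left out (adjusted p 0.072 to 0.343) and for CEBPA with any of 10 (0.0618 to 0.266). No group had 4 or more libraries, so single libraries were not examined as outlying.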

How the results depend on the processing

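Between the high and low dose, DESeq2 called 852 genes (796 of them among the 860), median-ratio scaling 857, no filter 836 and library size alone 849. With library size alone 44.1% of the calls were higher, against 55.3%, and the median of all genes moved by -0.03 (log2). Fitting only the 4 libraries called 1707 genes, 840 of them shared. That fit called 25 mitotic genes lower, 10 of cholesterol synthesis lower, 18 ATF4 targets higher and 16 NRF2 detoxification genes higher. Of 38 tested glycolysis and hypoxia genes it called 15 higher and 0 lower. The fit over all 19 groups called 3 of these higher, and 9 with the replicate block. Leaving out a library gave 467 to 501 calls, with 52.9 to 56.6% of the 860 kept. Of the 238 named genes no called one changed sign. Calls were missed by 5 of them with DESeq2, 8 with library size alone, 26 with no filter, and 53 to 57 with a library left out.

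Same-numbered high and low libraries deviated together only weakly (correlation 0.0429 over 10723 genes). The correlation was 0.2 between the high and medium dose and 0.0498 between the medium and low dose. With 2 pairs the numbers are not shown to pair the samples. With the replicate block 1031 genes were called, 859 of them shared, and for the difference from yijin 193. No replicate block could be fitted against vehicle because vehicle shares no code with soshiho.

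For the difference from yijin (149 genes) no filter gave 237, only the 4 groups 337, and leaving out a library 66 to 127. For the low dose against vehicle (2019) library size alone gave 3575, and leaving out a library 612 to 1675.

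Settings added after seeing the data were edgeR's newer quasi-dispersion (877 calls between doses), a robust fit (841) and both (854). Filtering the genes again when replicate 2 or 3 of the high dose was left out gave 481 or 486, and for the low dose 496 or 454. With 2 libraries a dose, small changes of genes with few counts may go undetected.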
